A study of Arabidopsis thaliana with 6 samples.

Results

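Cotyledons of the Arabidopsis thaliana line sicy-192 were compared with wild-type cotyledons, 2 arrays against 2 of the 6 arrays of the series, taken by their genotype labels. The sicy-192 group carries the sicy-192 mutation, the wild-type group does not, and both are of ecotype Col-0. All seedlings were 4 days old and had been raised on MS medium with 100 mM sucrose, with nights of 8 h at 22 °C and days of 16 h at 25 °C under light of 100 µmol/m2/s. Total RNA of cotyledons was labelled with biotin and hybridised to 1-colour Affymetrix arrays. The other 2 arrays hold the double mutant sicy-192 gun1-101, and they enter here through the shared estimate of the spread and through the mean signal that decides which probe sets were tested. The labels call the 2 arrays of a genotype biological replicates and say no more of how they were raised, and p-values therefore cover no more than the spread among these arrays, which may be technical.

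The sicy-192 mutation is known as a gain-of-function change in a plastid invertase, an enzyme that splits sucrose into glucose and fructose, and the line is named for cotyledons that yellow on sugar. A chloroplast is built from proteins of 2 genomes: most subunits are encoded in the nucleus and imported, while core subunits of the photosystems, the cytochrome b6f complex, the ATP synthase, the NDH complex, Rubisco and the plastid's own polymerase and ribosome are encoded in the plastid. Mitochondria share this arrangement, and nuclear genes such as those of alternative respiratory enzymes and small heat shock proteins are known to respond when respiration is disturbed. The gene table used here assigns no probe set to the invertase gene itself, so its transcript is not analysed here.

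Signals are scaled intensities, given in the order replicate 1 and replicate 2. A log2 change is sicy-192 minus wild type on the log2(signal + 16) scale, and "called" means an adjusted p under 0.05 in limma over the 14785 probe sets bright enough to be tested. Of these, 3402 were called, which is 23.0%, with 2041 higher (13.8%) and 1361 lower (9.21%) in sicy-192. The higher calls were 59.99% of all calls, a share of 48.1% under quantile normalization and 31.4% once arrays were centred on their medians. Among the 8033 named genes, with 1 probe set each, 13.5% were called higher and 8.58% lower, and the counts of each gene group are to be read against these shares. The median change over all tested probe sets was 0.16, and 0.15 both within replicate 1 and within replicate 2. The groups did not overlap for 63.7% of tested probe sets, so a gap between 2 and 2 arrays is common here. Replicate arrays correlated at 0.98 within sicy-192 and within wild type across probe sets. The spiked-in bacterial control bioB (its 3′ probe set) read 349.5 and 28.67 on the sicy-192 arrays and 295.3 and 21.53 on the wild-type arrays, so the replicate numbers split this control in both genotypes. The actin 5′ control read 198.4 and 249.3 in sicy-192 and 327.9 and 267.4 in wild type, while the actin 3′ control read 7302 and 6491 in sicy-192 and 6603 and 5918 in wild type. The share that RNA quality has in the results below was not tested.

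The tissue label was checked against marker genes. Of the mesophyll list, 2 of 9 genes had a named probe set, the antenna genes LHCB4.1 and LHCB4.2, which together summed to 17559 and 13504 in sicy-192 and 56770 and 43390 in wild type. The root hair gene EXPA7 read 6.26 and 3.168 in sicy-192 and 19.0 and 10.6 in wild type, and the shoot meristem gene CLV3 read 8.92 and 9.90 in sicy-192 and 3.74 and 11.8 in wild type, all below the test's filter. Other members of the root and apex lists, and all phloem and seed storage markers, have no named probe set here. Of 3 tested genes of the stomatal lineage, FMA, a regulator of guard cell fate, was called lower (89.1 and 83.6 in sicy-192, 159 and 144.6 in wild type, log2 change -0.71 ± 0.22, SE), and the call failed under 8 of the alternative settings (adjusted p as high as 0.161). The other 2, which act at earlier steps of that lineage, were not called: MUTE read 78.3 and 109 in sicy-192 and 13.2 and 83.0 in wild type (1.02 ± 0.49), and SPCH 124.5 and 133 in sicy-192 and 98.6 and 157 in wild type (0.04 ± 0.24). In these bulk samples, fewer cells of a type and less RNA per cell cannot be told apart, in this or any result below.

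Genes were grouped by the genome that encodes them, and the difference between these groups was not tested. Of 7946 tested nuclear genes, 13.5% were called higher and 8.28% lower, with a median log2 change of 0.17. Of 66 tested plastid-encoded genes, 31 (47.0%) were called lower and 3 higher, with a median of -0.78. Of 7 tested mitochondrion-encoded genes, 3 were called higher and 0 lower, with a median of 0.78. Relative to the median of all probe sets, 0.16, the plastid median lies lower and the mitochondrial one higher. The plot by encoding genome shows all 3 distributions.

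**Figure D1:**
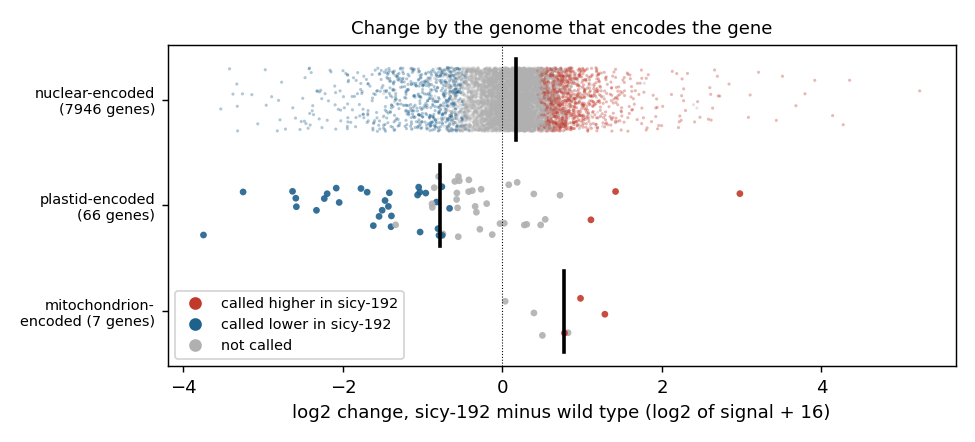
Log2 change (sicy-192 minus wild type, x axis) of every tested named gene, in rows by the genome that encodes it. Each point is a gene, red where called higher, blue where called lower and grey where not called, and the vertical spread within a row has no meaning. Black bars are medians, at 0.17 for nuclear, -0.78 for plastid-encoded and 0.78 for mitochondrion-encoded genes.

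Nuclear genes of the photosynthetic light reactions that could be tested were lower in sicy-192. All 3 tested antenna genes, of 20 listed, and all 6 tested genes of photosystem and ATP synthase proteins, of 35 listed, fell. Their medians were -2.16 and -1.64. The tested antenna genes are all LHCB4 genes, and no gene of an electron carrier was among the others. The rest of both lists has no named probe set. LHCB4.2, a minor antenna protein of photosystem II, had signals of 5619 and 3958 in sicy-192 and 24350 and 18400 in wild type (log2 change -2.16 ± 0.21, adjusted p = 0.000147). Its sister gene LHCB4.3 read 727 and 586 in sicy-192 and 3918 and 3827 in wild type (-2.54 ± 0.15). In both genes the brightest sicy-192 array lay several-fold below the dimmer wild-type array. PSB27, a photosystem II assembly protein of the lumen, read 4870 and 4392 in sicy-192 and 21280 and 16770 in wild type (-2.03 ± 0.16, adjusted p = 6.55e-05). PSBY of photosystem II (-1.94), PSAN of photosystem I (-1.75) and ATPC1, the gamma subunit of the plastid ATP synthase (-1.53), followed.

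Transcripts of carbon fixation and photorespiration genes were lower in sicy-192 as well. All 4 tested Calvin cycle genes and all 5 tested photorespiration genes were called lower, with medians of -2.19 and -1.37. These lists hold 22 and 19 genes, and their other members have no named probe set. PRK, the phosphoribulokinase that regenerates the CO2 acceptor, read 3697 and 2967 in sicy-192 and 22740 and 17760 in wild type (-2.60 ± 0.17, adjusted p = 3.34e-05). RCA, the Rubisco activase, had the smallest change of the 4 (17740 and 12720 in sicy-192, 36520 and 25160 in wild type, -1.01 ± 0.25), and its call failed without the filter, without wild-type replicate 1 and without sicy-192 replicate 2 (adjusted p = 0.0691, 0.107 and 0.12). LrgB, the envelope transporter that exchanges glycolate and glycerate, fell most of the photorespiration list, with 1400 and 1423 in sicy-192 and 6613 and 6313 in wild type (-2.18 ± 0.13, adjusted p = 2.1e-05). HPR, the peroxisomal hydroxypyruvate reductase (-2.09), and the glycine decarboxylase subunit genes AT1G32470 (-1.37) and AT1G11860 (-1.29), which act in mitochondria, also fell.

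Genes listed for the NDH complex and cyclic electron flow, and for thylakoid assembly and redox, were mostly lower too. All 7 tested nuclear genes of the NDH complex and of cyclic electron flow around photosystem I fell, with a median of -1.60. NdhS, the subunit that receives ferredoxin, read 944 and 718 in sicy-192 and 4794 and 3438 in wild type (-2.28 ± 0.19, adjusted p = 9.12e-05). NdhL (-2.00), PIFI, an NDH-related protein (-1.69), and NdhN (-1.60) followed. The smallest falls of this list, of -0.91 and -0.74, had calls that failed under 4 alternatives each. Of 16 thylakoid assembly and redox genes, 13 fell and 1 rose, with a median of -0.80. TRXF2, a thioredoxin that activates Calvin cycle enzymes in the light, read 989 and 933 in sicy-192 and 3210 and 2681 in wild type (-1.60 ± 0.14), and TROL, which anchors ferredoxin-NADP reductase to the thylakoid, changed by -1.47. SECA2, of a Sec protein translocation system, was the gene of this list that rose (155 and 181 in sicy-192, 73.8 and 89.7 in wild type, 0.91 ± 0.21). Its call failed without wild-type replicate 1 (adjusted p = 0.069) and without sicy-192 replicate 2 (0.09).

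Transcripts of most tested chlorophyll synthesis genes were lower in sicy-192. Of 9 tested tetrapyrrole genes, from a list of 31, 8 fell and 0 rose, with a median of -0.96. PORB, the light-dependent protochlorophyllide reductase, read 709 and 1054 in sicy-192 and 5075 and 7272 in wild type (-2.79 ± 0.22, adjusted p = 6.55e-05). It stood among the 15 largest falls of all nuclear genes. HEME1, the uroporphyrinogen decarboxylase (-1.71), CHLM, the magnesium protoporphyrin methyltransferase (-1.55), and CHLI2, a subunit of magnesium chelatase (-1.06), also fell. The sole tested carotenoid gene, the lycopene cyclase LYC, read 834.5 and 964 in sicy-192 and 1416 and 1443 in wild type (-0.66 ± 0.14), a call that failed without sicy-192 replicate 1 (adjusted p = 0.068).

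Nuclear genes that serve plastid gene expression did not move as a block. All 10 tested nuclear genes of plastid ribosomal proteins, of 40 listed, fell, with a median of -0.77. The count was 6 with quantile normalization, with a median of -0.44. The largest fall was that of AT1G29070, for ribosomal protein L34, with 6103 and 6952 in sicy-192 and 13750 and 14740 in wild type (-1.13 ± 0.14, adjusted p = 0.000692). Of 12 tested genes of plastid RNA editing, splicing and processing, none was called in limma in either direction (2 had an unadjusted p under 0.05, as did 36.9% of all tested probe sets), with a median of 0.08 and changes between -0.37 and 0.56. The median lay at -0.09 under quantile normalization and at -0.12 once arrays were centred.

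**Figure D2:**
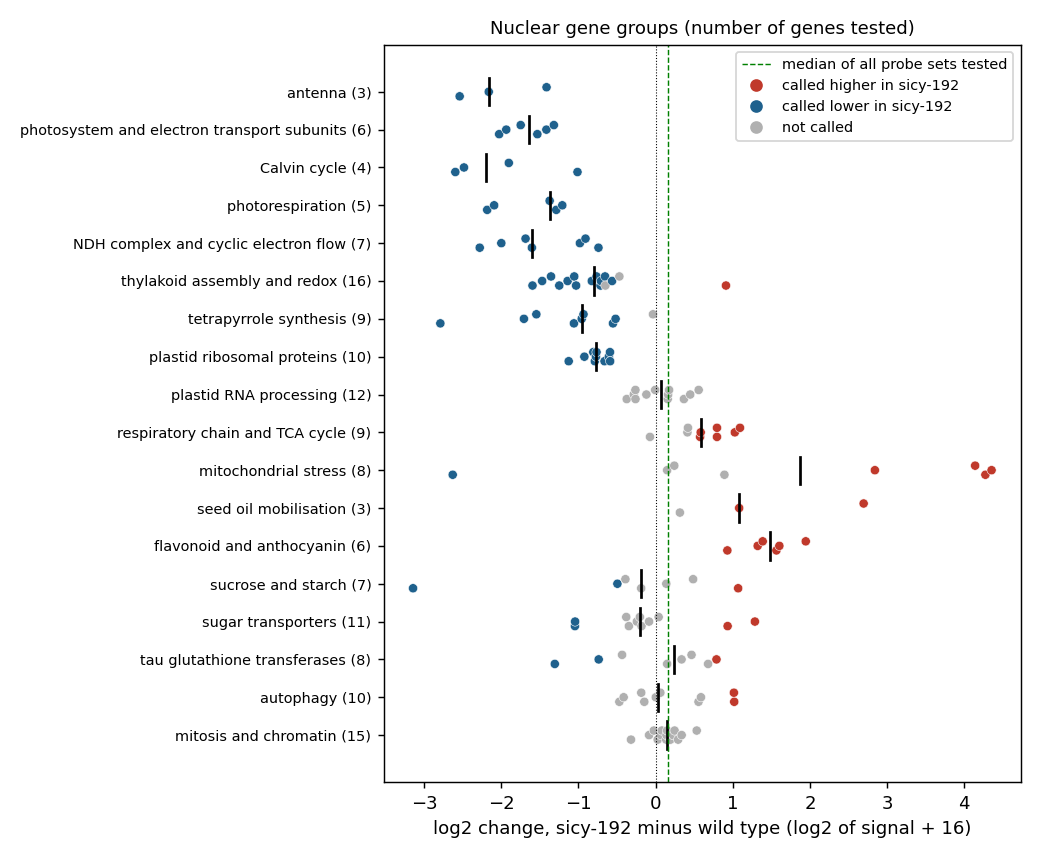
Log2 change (sicy-192 minus wild type, x axis) of the tested members of 18 nuclear gene groups, in rows, with the number tested in brackets. The row of photosystem and electron transport subunits holds tested genes of photosystem and ATP synthase proteins only. Each point is a gene, coloured by its call, black bars are group medians, and the green dashed line is the median of all tested probe sets, 0.16. The medians of the photosynthesis rows and of the plastid ribosomal protein row lie left of that line. They run from -2.19 for the Calvin cycle to -0.77 for plastid ribosomal proteins, while the mitochondrial stress row spans -2.63 to 4.35.

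In the plastid genome, most tested photosystem genes were lower in sicy-192. Of 14 tested photosystem II genes, 10 were called lower and 0 higher, with a median of -1.58, and all 4 tested photosystem I genes fell, with a median of -1.72. The small subunit gene psbH read 162.5 and 153.5 in sicy-192 and 2166 and 2490 in wild type (-3.75 ± 0.16, adjusted p = 1.21e-05). The inner antenna gene psbC (CP43) read 850 and 536 in sicy-192 and 7600 and 5688 in wild type (-3.25 ± 0.23). In both, the brighter sicy-192 array was several-fold below the dimmer wild-type array. The reaction centre genes psbD (D2, -2.23) and psbA (D1, -1.77), the inner antenna gene psbB (CP47, -2.20) and the cytochrome b559 genes psbE (-2.08) and psbF (-1.62) fell as well. The psbM call (-0.76 ± 0.15) failed under 3 alternatives, and its change was -0.22 with quantile normalization. That of psbJ (-1.04 ± 0.22) failed without sicy-192 replicate 1, with a change of -0.88. In photosystem I, psaA read 87.8 and 52.7 in sicy-192 and 286 and 387 in wild type (-2.05 ± 0.28), and psaB, its partner in the reaction centre, changed by -1.39. The psaI call (-0.83 ± 0.19) failed without wild-type replicate 2 and without sicy-192 replicate 2, with changes of -0.66 and -0.57. For psaJ, with 361 and 427 in sicy-192 and 1031 and 4033 in wild type (-2.33 ± 0.55), the wild-type arrays stood several-fold apart, and the call failed without sicy-192 replicate 1 (adjusted p = 0.0536) and without the filter (0.0502).

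Within the gene cluster that starts with psbB the members differed in direction. psbB, psbH and petB (cytochrome b6) were called lower, petB with 3821 and 3036 in sicy-192 and 22900 and 18360 in wild type (-2.58 ± 0.20, adjusted p = 6.55e-05). psbT (-0.54 ± 0.39, adjusted p = 0.342) and petD (-0.85 ± 0.34, adjusted p = 0.0992) of the same cluster were not called. psbN, which lies on the opposite strand between psbT and psbH and is needed for photosystem II assembly, rose, with 1152 and 534 in sicy-192 and 115 and 63.0 in wild type (2.98 ± 0.44, adjusted p = 0.00156). Within replicate 1 its change was 3.16 and within replicate 2 it was 2.80. How far transcripts of the opposite strand contribute to these signals was not tested.

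None of the 6 plastid-encoded ATP synthase genes was called in limma (1 had an unadjusted p under 0.05), with a median of -0.36 and changes from -0.75 to -0.03. atpB, of the catalytic beta subunit, read 28100 and 19590 in sicy-192 and 34850 and 26650 in wild type (-0.38 ± 0.21, adjusted p = 0.228), so its groups overlapped, although each sicy-192 array read below the wild-type array of the same number. atpE, cotranscribed with atpB, read 28550 and 20340 in sicy-192 and 35130 and 26570 in wild type (-0.34 ± 0.21). atpF alone had groups that did not overlap (522.5 and 459 in sicy-192, 742 and 933 in wild type, -0.75 ± 0.25, adjusted p = 0.0571). Over the alternatives its adjusted p ran between 0.0102 and 0.215, and it was called lower with quantile normalization (0.0438), after centring on the median (0.0343) and with only the 4 arrays compared (0.0199), among others. atpA, of the alpha subunit, read 6619 and 4273 in sicy-192 and 9114 and 3237 in wild type (-0.03 ± 0.40). With quantile normalization the changes of atpA, atpB and atpE were above 0, at 0.16, 0.10 and 0.17. A call missed at this precision does not show that these genes were alike in the 2 genotypes, and the difference between the complexes was not tested. The nuclear partner ATPC1, given above, fell by 1.53.

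Of 9 tested plastid-encoded NDH genes, 6 fell and 0 rose, with a median of -0.88. ndhJ read 751 and 644 in sicy-192 and 2819 and 1856 in wild type (-1.70 ± 0.24), and ndhK changed by -1.40. The calls of ndhD, ndhE and ndhG failed under 2 alternatives each. That of ndhI failed under 7, and its change was -0.11 with quantile normalization. The large subunit of Rubisco, rbcL, read 1098 and 610 in sicy-192 and 5116 and 4912 in wild type (-2.59 ± 0.24, adjusted p = 0.000122). In the cytochrome b6f complex, besides petB, petA (cytochrome f) fell, with 3878 and 2503 in sicy-192 and 7066 and 5924 in wild type (-1.05 ± 0.25). The petA call failed without wild-type replicate 1 and without sicy-192 replicate 2 (adjusted p = 0.071 and 0.0904), and the other 4 tested b6f genes were not called.

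Genes of the plastid's own expression machinery took several directions. The polymerase subunit gene rpoC2 read 3931 and 3251 in sicy-192 and 1219 and 1445 in wild type (1.42 ± 0.18, adjusted p = 0.000555), and rpoC1 read 5796 and 5689 in sicy-192 and 2633 and 2670 in wild type (1.11 ± 0.16, adjusted p = 0.00118). Both rose, and with psbN they are the 3 plastid-encoded genes called higher. rpoA, of the alpha subunit, read 17810 and 13030 in sicy-192 and 16710 and 12430 in wild type (0.08 ± 0.21). The remaining polymerase gene, rpoB, was too dim for the test, with 66.21 and 68.93 in sicy-192 and 54.55 and 51.93 in wild type. Of the ribosomal protein genes, 2 of 7 of the large and 2 of 8 of the small subunit were called lower and none higher, with medians of -0.33 and -0.56. rpl33 (748 and 564 in sicy-192, 3334 and 5067 in wild type, -2.63 ± 0.37) and rps18 (608 and 547 in sicy-192, 1191 and 2061 in wild type, -1.42 ± 0.26) lie next to each other in the plastid genome and had the largest falls of their lists. With quantile normalization neither rpl22 nor rps4 stayed called (adjusted p = 0.117 and 0.175), nor did they without some single arrays.

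Among the remaining plastid genes, 4 of 7 fell: cemA, of an envelope protein (-1.51), ccsA, needed to attach haem to c-type cytochromes (-1.47), accD, a subunit of the acetyl-CoA carboxylase of fatty acid synthesis (-1.43), and ycf4, a photosystem I assembly factor (-0.80). accD read 223 and 138.5 in sicy-192 and 494 and 510.1 in wild type (± 0.24, adjusted p = 0.003). The ycf4 call failed under 9 alternatives (adjusted p as high as 0.286). clpP, a protease subunit, had 17220 and 16220 in sicy-192 and 16720 and 12920 in wild type (0.19 ± 0.16), and the maturase gene matK 7432 and 7520 in sicy-192 and 9918 and 12120 in wild type (-0.55 ± 0.30). Neither was called.

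The median change of the 66 plastid-encoded genes was -0.58 within replicate 1 and -0.999 within replicate 2. A control for 25S ribosomal RNA, an RNA that like plastid transcripts has no long poly(A) tail, read 1378 and 1173 in sicy-192 and 451.6 and 1763 in wild type. Wild-type replicate 1 was the low array there, and the 2 genotypes overlapped. The primer of the reverse transcription is not given in the labels, and its part in the plastid values was not tested.

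**Figure D3:**
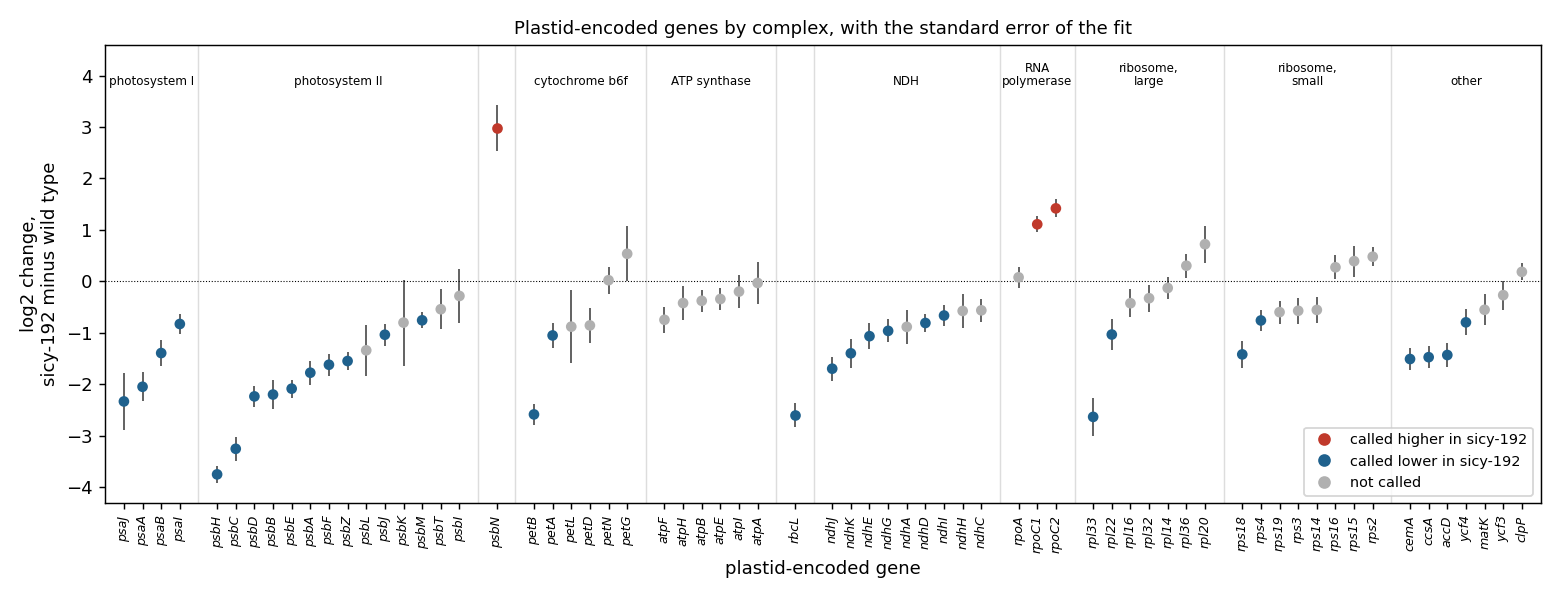
Log2 change (sicy-192 minus wild type, y axis) of the 66 tested plastid-encoded genes, grouped by complex and ordered by change within it. Points are coloured by call and bars are the standard error of the fit. psbN at 2.98, rpoC2 at 1.42 and rpoC1 at 1.11 are the genes called higher, and psbH at -3.75 is the lowest.

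Mitochondrion-encoded transcripts could be followed for fewer genes. Of 16 genes with a named probe set, 7 passed the filter and 9 were too dim. ccmFC, needed for cytochrome c maturation, read 304 and 212 in sicy-192 and 100.5 and 89.2 in wild type (1.29 ± 0.26, adjusted p = 0.00779). cox1, the core subunit of cytochrome c oxidase, read 393 and 239 in sicy-192 and 141 and 155 in wild type (0.98 ± 0.28, adjusted p = 0.0347). nad4, of complex I, read 1173 and 1498 in sicy-192 and 678 and 865 in wild type (0.78 ± 0.18, adjusted p = 0.0142). These are the 3 that rose. In each the lower sicy-192 array stood above the higher wild-type array, and 63.7% of all tested probe sets had groups without overlap, in either direction.

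The other 4 tested mitochondrial genes were not called. The maturation gene ccmFN1 read 3280 and 2078 in sicy-192 and 1935 and 1114 in wild type (0.82 ± 0.36, adjusted p = 0.131), and nad9 had a change of 0.50 ± 0.34, nad1 of 0.40 ± 0.26 and the protein export gene mttB of 0.03 ± 0.29. nad1 has 7 probe sets, of which 1 passed the filter. None of the 3 calls held throughout. That of ccmFC failed without sicy-192 replicate 1 (adjusted p = 0.0503). That of nad4 failed after centring on the median (0.072), without wild-type replicate 1 (0.0767) and without sicy-192 replicate 2 (0.0891), and that of cox1 failed under 7 alternatives (up to 0.194). Probe sets of mitochondrial genes may also match the copy of mitochondrial DNA in the nuclear genome, and this was not tested. The part that the primer of the reverse transcription has in the mitochondrial values was not tested either.

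Nuclear genes that respond to mitochondrial dysfunction held some of the largest rises. Of 8 tested members of that list, 4 rose and 1 fell, with a median of 1.87. NDB4 and GSTU25 passed the filter through the double-mutant arrays, and with only the 4 arrays compared 6 members were tested, of which 4 rose and 1 fell, with a median of 3.49. AT2G21640, known as UPOX for its rise under oxidative stress, read 4824 and 4804 in sicy-192 and 347 and 190.2 in wild type (4.14 ± 0.23, adjusted p = 1.96e-05). AT5G51440, a small heat shock protein of mitochondria, read 2551 and 3363 in sicy-192 and 167.5 and 110.4 in wild type (4.27 ± 0.20, adjusted p = 1.39e-05). In both, each sicy-192 array was more than 10 times as bright as either wild-type array.

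AT2G04050, a transporter of the MATE family, read 944 and 1867 in sicy-192 and 62.1 and 39.3 in wild type (4.35 ± 0.29). AT2G41730 read 1026 and 1303 in sicy-192 and 203 and 106 in wild type (2.84 ± 0.25), on a probe set whose type may also match similar transcripts. The member that fell was AT5G09570, known as AT12CYS-2, with 68.2 and 63.4 in sicy-192 and 522.5 and 459 in wild type (-2.63 ± 0.25, adjusted p = 0.000143). It is a small twin-cysteine protein of mitochondria that is also present in plastids. The other 3, the external NADH dehydrogenase genes NDB2 (0.24 ± 0.18) and NDB4 (0.89 ± 0.38) and the glutathione transferase GSTU25 (0.15 ± 0.25), were not called and are named after their values were seen. The alternative oxidase genes of the list have no named probe set here. The median of the list was 1.67 within replicate 1 and 2.07 within replicate 2. The list was drawn up with earlier results of these data known, so its direction is not independent evidence.

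Respiratory enzymes of the nuclear genome changed less in size. Of 9 tested genes of the respiratory chain and the tricarboxylic acid (TCA) cycle, 6 rose and 0 fell, with a median of 0.58, and 4 rose when arrays were centred on their medians. SDH1-1, the flavoprotein of succinate dehydrogenase, read 3914 and 4100 in sicy-192 and 1684 and 2277 in wild type (1.03 ± 0.16, adjusted p = 0.00229). Both tested genes of its iron-sulfur subunit, SDH2-1 (2576 and 2992 in sicy-192, 1627 and 1559 in wild type) and SDH2-2 (1894 and 2001 in sicy-192, 1027 and 1210 in wild type), rose by 0.80. AT5G65750, of 2-oxoglutarate dehydrogenase, read 370 and 359.5 in sicy-192 and 166 and 159 in wild type (1.09 ± 0.17). These 3 succinate dehydrogenase genes had both sicy-192 arrays above both wild-type arrays, while 63.7% of all tested probe sets had groups without overlap, in either direction. In cytosolic citrate lyase, which supplies acetyl-CoA outside the mitochondrion, 2 of 4 tested genes rose, ACLA-3 (0.61) and ACLA-2 (0.57), and both calls failed after centring on the median (adjusted p = 0.0912 and 0.138).

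**Figure D4:**
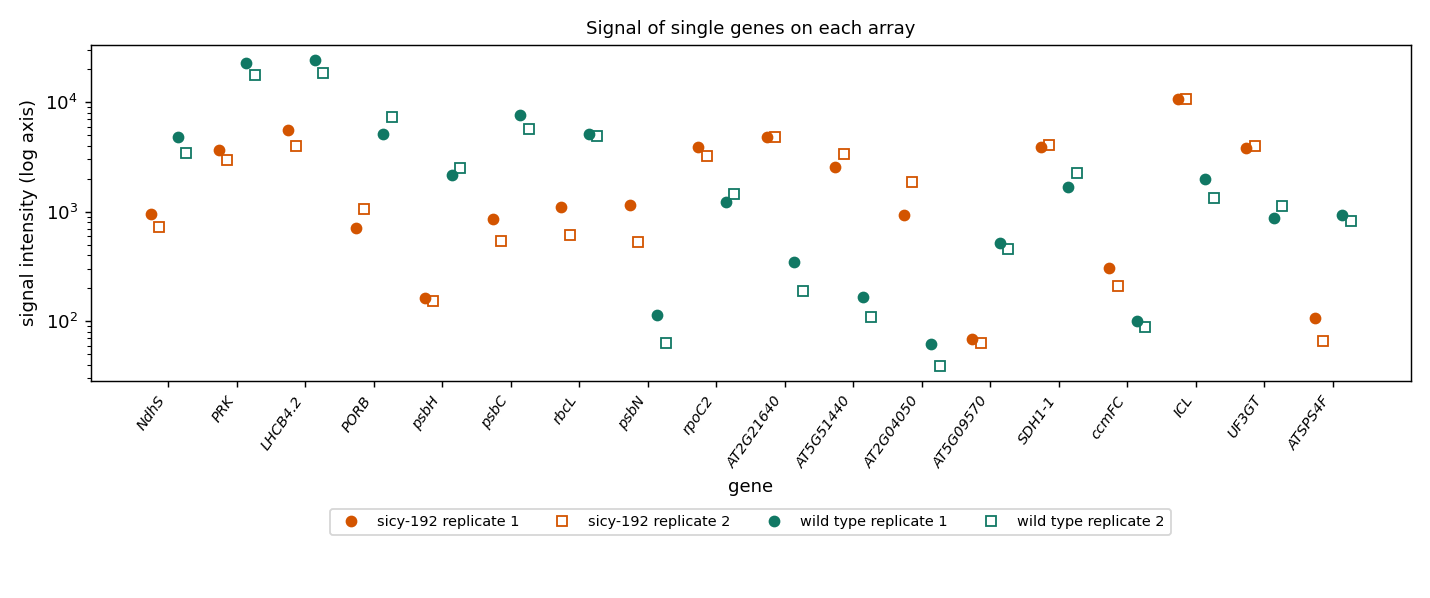
Signal intensity (y axis, log scale) on each of the 4 arrays for 18 genes named in the text, with sicy-192 (orange) left of wild type (green) for each gene. Filled circles are replicate 1 and open squares replicate 2. For AT2G21640 the sicy-192 arrays lie at 4824 and 4804 against 347 and 190.2 in wild type, and for psbH at 162.5 and 153.5 against 2166 and 2490.

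Genes of sugar metabolism and transport were called in both directions, beside shares of 13.5% higher and 8.58% lower among all named genes. Of 7 tested sucrose and starch genes, 1 rose and 2 fell. ATSPS4F, a sucrose phosphate synthase, which makes sucrose in the cytosol, read 107 and 66.6 in sicy-192 and 928 and 822.5 in wild type (-3.14 ± 0.23, adjusted p = 5.15e-05). APL3, which encodes a large subunit of the starch synthesis enzyme ADP-glucose pyrophosphorylase, read 1281 and 1239 in sicy-192 and 451 and 775 in wild type (1.07 ± 0.24), a call that failed without wild-type replicate 1 (adjusted p = 0.0518). AT3G15450, the 1 tested gene of 8 listed as sugar-repressed, fell, with 149 and 86.5 in sicy-192 and 440.5 and 657 in wild type (-2.09 ± 0.30).

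Of 11 sugar transporter genes, 2 rose and 2 fell. TMT1, which loads monosaccharides into the vacuole, read 1177 and 1463 in sicy-192 and 452 and 617.5 in wild type (1.29 ± 0.19, adjusted p = 0.00129). SWEET13, a sucrose exporter of the plasma membrane, read 229.6 and 187 in sicy-192 and 104 and 98.0 in wild type (0.93 ± 0.19), and its call failed without sicy-192 replicate 1 (adjusted p = 0.0608). The vacuolar SWEET2 (235 and 262.5 in sicy-192, 544 and 516 in wild type, -1.05 ± 0.20) and SWEET16 (85.8 and 60.3 in sicy-192, 210.4 and 129.8 in wild type, -1.04 ± 0.30) fell. The SWEET16 call failed under 4 alternatives (adjusted p as high as 0.192).

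Of 3 tested genes of seed oil use, 2 rose. ICL, the isocitrate lyase of the glyoxylate cycle that turns seed oil into sugar, read 10630 and 10770 in sicy-192 and 1992 and 1346 in wild type (2.70 ± 0.19, adjusted p = 4.58e-05). PPDK, which links that carbon to sugar synthesis, read 1533 and 1352 in sicy-192 and 847 and 531 in wild type (1.08 ± 0.21), and the lipase gene SDP1 was not called (0.32 ± 0.16). All 6 tested flavonoid and anthocyanin genes, of 28 listed, rose, with a median of 1.48. UF3GT, an anthocyanin glycosyltransferase, read 3806 and 3952 in sicy-192 and 885 and 1118 in wild type (1.95 ± 0.15, adjusted p = 6.12e-05). DFR, the dihydroflavonol reductase, read 6797 and 7524 in sicy-192 and 1953 and 2808 in wild type (1.60 ± 0.19). CHIL, a chalcone isomerase-like protein that promotes flavonoid synthesis, read 2957 and 3617 in sicy-192 and 1085 and 1690 in wild type (1.26 ± 0.21, adjusted p = 0.00248). It was the 1 call among 6 tested genes of the phenylpropanoid list, whose median was 0.07.

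Among genes against oxidants, the plastid members differed. TAPX, the ascorbate peroxidase of the thylakoid membrane, read 698 and 575.5 in sicy-192 and 3703 and 2601 in wild type (-2.26 ± 0.19, adjusted p = 7.68e-05). SAPX, its relative in the stroma, read 2545 and 2556 in sicy-192 and 2423 and 2336 in wild type (0.10 ± 0.14, adjusted p = 0.631). The peroxiredoxin gene AT3G11630 fell (-0.69 ± 0.16), with a call that failed under 5 alternatives (adjusted p as high as 0.123). Of 10 redox repair genes, 2 rose and 1 fell. The rise of ATMDAR2, a monodehydroascorbate reductase gene (0.55), failed under 11 alternatives (adjusted p as high as 0.209). MSRB5, a methionine sulfoxide reductase, read 4453 and 4553 in sicy-192 and 1476 and 921 in wild type (1.93 ± 0.20, adjusted p = 0.000227), and SRX, the plastid sulfiredoxin, read 593 and 800 in sicy-192 and 1453 and 1170 in wild type (-0.91 ± 0.20). The SRX call failed without wild-type replicate 1 and without sicy-192 replicate 1 (adjusted p = 0.0652 and 0.0733). Of 8 tau-class glutathione transferase genes, 1 rose (GSTU27, 0.79) and 2 fell (GSTU18, -1.31, and GSTU16, -0.74). The GSTU27 call failed under 5 alternatives and the GSTU16 call under 2 (adjusted p as high as 0.157 and 0.0748).

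In several further groups few genes were called. PYE, a repressor in the iron deficiency response, read 125 and 137 in sicy-192 and 539.5 and 430.4 in wild type (-1.76 ± 0.20, adjusted p = 0.000327), and bHLH115, an activator of that response, rose by 0.55, 1 gene each way of 6 tested. BZIP60, a transcription factor of the unfolded protein response, read 1007 and 1340 in sicy-192 and 463 and 577 in wild type (1.14 ± 0.20), the 1 call among 13 endoplasmic reticulum stress genes. Of 10 autophagy genes 2 rose, ATG8D (629 and 623.5 in sicy-192, 264 and 343 in wild type, 1.02 ± 0.16) and ATG8B (1.02 ± 0.16), both ubiquitin-like proteins of the autophagosome. The expansins, which loosen cell walls, included the rise of EXPA20 (622 and 464 in sicy-192, 100.1 and 111 in wild type, 2.19 ± 0.19) and the fall of EXPA8 (227 and 202 in sicy-192, 914 and 756 in wild type, -1.88 ± 0.17), among 16 tested expansin and xyloglucan transferase genes of which 2 rose and 2 fell. Calls of bHLH115, and of the fallen expansin EXPB1, were lost under 5 and 8 alternatives. Of 7 tested auxin genes 1 rose and 1 fell. IAA34, of a family of auxin response repressors, read 123 and 245 in sicy-192 and 60.6 and 48.0 in wild type (1.44 ± 0.32), and its call failed without sicy-192 replicate 2 (adjusted p = 0.0872). GH3.9, of a family that conjugates hormones to amino acids, fell, with 51.8 and 40.7 in sicy-192 and 255.7 and 219.8 in wild type (-2.03 ± 0.22).

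Genes of cell division held no call. Of 15 mitosis and chromatin genes none was called in limma (1 had an unadjusted p under 0.05), with a median of 0.14, close to that of all probe sets. Of 8 dehydration genes 1 fell, COR15B, a cold-regulated plastid protein (46.4 and 24.9 in sicy-192, 77.9 and 99.5 in wild type, -1.04 ± 0.27). Its call failed without the filter, without wild-type replicate 2 and without sicy-192 replicate 2 (adjusted p = 0.063, 0.0907 and 0.117). In that list the replicates parted: LEA18, a late embryogenesis protein, read 498 and 18.9 in sicy-192 and 73.2 and 1.05 in wild type (1.78 ± 1.21, adjusted p = 0.316), so replicate 1 was the high array of both genotypes. COR15A read 174 and 49.0 in sicy-192 and 324 and 203 in wild type, with replicate 1 again the higher (-1.30 ± 0.53, adjusted p = 0.109).

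The largest changes of single nuclear genes lie partly outside these lists. Among the 15 largest rises, 4 are the mitochondrial stress genes named above. The largest was AT1G17960, with 1769 and 1849 in sicy-192 and 67.2 and 12.3 in wild type (5.23 ± 0.39, adjusted p = 5.15e-05). Its wild-type replicate 2 lies below the added 16, and its change was 5.91 with an offset of 1 and 4.23 with an offset of 64. AT2G47780 read 4751 and 5062 in sicy-192 and 327 and 293 in wild type (3.92 ± 0.20, adjusted p = 1.59e-05), the closest wild-type pair among the leading rises. AT5G60250 followed (913 and 1178 in sicy-192, 44.9 and 78.6 in wild type, 3.79 ± 0.23). For chr31, AT3G61090 and AT4G25330 wild-type replicate 2 read 2.78, 3.84 and 5.76, less than the offset of 16, on which the size of each change (3.68, 3.51 and 3.44) therefore depends.

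Among the 15 largest falls, AT1G75460 read 173 and 133 in sicy-192 and 1711 and 1619 in wild type (-3.33 ± 0.16, adjusted p = 1.39e-05), and AT5G48490 read 498 and 325 in sicy-192 and 4306 and 3700 in wild type (-3.26 ± 0.20). AT1G13650 had the largest fall at the offset used (32.0 and 19.4 in sicy-192, 579 and 367 in wild type, -3.53 ± 0.26). With an offset of 64 its change was -2.56, against -3.00 for AT1G75460 and -3.12 for AT5G48490. AT3G28270 fell with a wide spread in wild type (59.6 and 22.6 in sicy-192, 854 and 319 in wild type, -3.32 ± 0.45). All 30 of these calls held under each alternative in which the gene was tested. The genes were chosen as the largest called changes on these same arrays, so this is not independent support. chr31, AT3G61090, AT4G25330 and AT3G11110, dim in 1 genotype, were tested under 12 alternative settings, against 16 for AT1G17960.

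**Figure D5:**
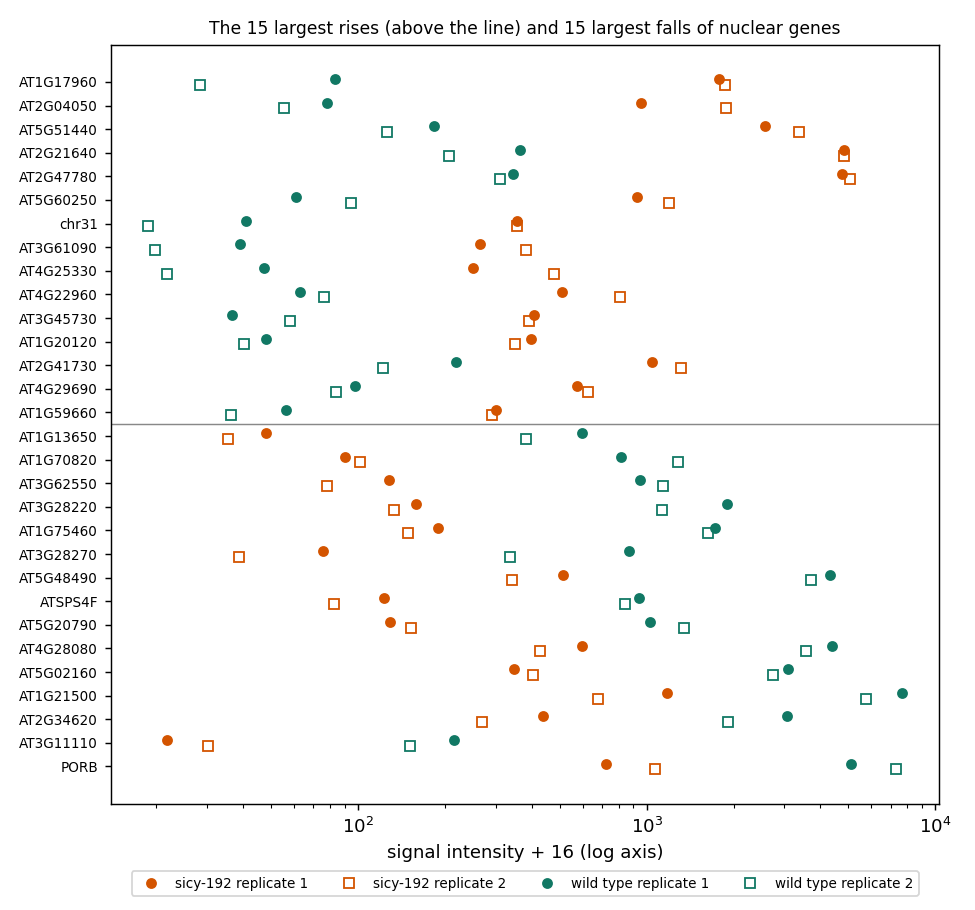
Signal intensity plus 16 (x axis, log scale) on the 4 arrays for the 15 largest rises (above the line) and the 15 largest falls of called nuclear genes, in rows. sicy-192 arrays are orange and wild-type arrays green, with filled circles for replicate 1 and open squares for replicate 2. The genes were chosen among those whose groups do not overlap, so the gap between orange and green marks in every row follows from that choice.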

How the data were processed

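Expression of 22746 non-control probe sets was measured on 6 Affymetrix arrays, 2 per genotype. The deposited values are linear signal intensities, scaled by the authors to a trimmed mean of 500, as the values show, and GCOS is credited to the submitters' processing notes, with no version. The algorithm is not given in the sources used here. Arrays were rescaled to a trimmed mean of 500 (2% left out at each end), 16 was added, log2 was taken, and probe sets below the 35th percentile of mean log2 value were left out. An offset understates the change of dim genes. limma 3.58.1 in R 4.3.3 fitted all 6 arrays by genotype, with a variance trend (3 residual and 6.27 prior degrees of freedom) and Benjamini-Hochberg adjustment over 14785 probe sets. The number of arrays limits the precision.

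The gene table names 1 gene for 13513 probe sets, several for 503 and none for 8730, and 13436 matched a RefSeq locus. List members without a named probe set were not tested. The brightest probe set stands for a gene, and levels of different probe sets are not compared. Named genes are the 15 largest rises and 15 largest falls of called nuclear genes without overlap, up to 4 members of each list with the largest change plus 1 of the other direction, and any organelle-encoded gene. GSTU25 and the dim marker genes EXPA7 and CLV3 are outside this rule and were named after their values were seen. Members and lists were chosen with earlier results of these data known. Alternatives changed the offset, filter, scaling, variance trend, block, threshold and arrays.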

Additional observations from a re-analysis of the deposited data

Results flagged for a closer look

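Of 5322 named genes left out by the filter on dim probe sets, 6 were at least 4-fold brighter on each sicy-192 array than on either wild-type array, a limit set after values were seen. ALPHA-VPE, a vacuolar processing enzyme, read 207.7 and 254.8 in sicy-192 (mean 231.28) and 8.93 and 10.99 in wild type. AT4G34320 averaged 176.73 in sicy-192 and 16.7 in wild type, AT1G19960 112.71 in sicy-192 and 9.71 in wild type, and AT1G26970 92.37 in sicy-192 and 8.55 in wild type. AT1G01640 averaged 90.001 in sicy-192 and 5.94 in wild type, and AT3G54520 82.348 in sicy-192 and 1.24 in wild type. In a fit without the filter, their adjusted p in limma lay between 0.000827 for ALPHA-VPE and 0.00397 for AT1G26970. The genes were picked for the gap between these same arrays, so these p-values are not independent support. These genes stand in none of the comparisons above.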

How the results depend on the processing

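The 3402 probe sets called in sicy-192 against wild type became 5412 with the replicate number as a block, and 2043 to 2968 when 1 array was left out, the count being 2218 when wild-type replicate 1 was dropped, and 2094 or 2043 when sicy-192 replicate 1 or 2 was. Same-numbered arrays deviated together (r of 0.436 between wild type and sicy-192), but the labels do not say that a number marks a shared batch. With the block, 43 plastid-encoded genes were called lower, 4 mitochondrion-encoded genes were called, 5 mitochondrial stress genes were called higher and 3 of 6 plastid-encoded ATP synthase genes were called lower, against 0 without it. Leaving out a sicy-192 gun1-101 array was added after seeing the data. Without 1 array, plastid-encoded genes called lower numbered 23 to 36. Mitochondrion-encoded genes called numbered 1 after centring on the median and 1 to 3 without 1 array (1 without wild-type replicate 1 and 1 without sicy-192 replicate 1). Of all calls, 59.99% were higher in sicy-192, against 48.1% with quantile normalization and 31.4% after centring, and the median of all probe sets was 0.16, 0.05 and -0.03 in these scalings. Of 251 genes followed over 17 alternatives, 146 were called. Of these, 104 kept their call throughout, 42 lost it under at least 1 alternative and 0 turned in sign. Of the genes not called, 32 turned in sign, and values follow for those named in the text, some others having been left unnamed after these values were seen. With quantile normalization atpA had 0.16, atpE 0.17, atpB 0.10, mttB -0.12 and SPCH -0.13. After centring GSTU25 had -0.043, SAPX -0.093, clpP -0.0081, rpoA -0.11, mttB -0.16 and SPCH -0.15. Leaving out 1 array gave changes from -0.16 (without sicy-192 replicate 1) to 3.72 for LEA18 and from -0.78 to 0.71 for atpA, which was above 0 without wild-type replicate 1 (0.71) and without sicy-192 replicate 2 (0.28). The range was -0.0011 to 0.37 for clpP, below 0 without wild-type replicate 2. It was -0.15 to 0.30 for rpoA and -0.23 to 0.30 for mttB, both below 0 without wild-type replicate 2 (-0.13 and -0.23) and without sicy-192 replicate 1 (-0.15 and -0.21). It was -0.26 to 0.34 for SPCH, below 0 without wild-type replicate 1 (-0.26) and without sicy-192 replicate 2 (-0.0049), -0.85 to 0.011 for atpH, above 0 without sicy-192 replicate 2, and -0.62 to 0.22 for atpI, above 0 without wild-type replicate 2. The cause was not tested.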

Other observations

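Among the named genes too dim for the test, 2 were at least 4-fold lower in sicy-192 in every pairing of arrays, taken on signal + 16. BHLH101, a transcription factor of the iron deficiency response, read 14.9 and 3.06 in sicy-192 and 153 and 200 in wild type. Without the filter its log2 change was -2.98, with an adjusted p of 0.00248 in limma. AT5G42250 read 2.04 and 6.39 in sicy-192 and 132 and 173 in wild type, and without the filter its log2 change was -3.06 with an adjusted p of 0.00137. The 2 sicy-192 arrays lie near or below the added 16 for both genes, so the sizes of these changes rest on that offset. Both genes were picked for the gap between these same arrays, so their p-values are not independent support.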
